A study of Mus musculus with 38 samples.

Results

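Endoplasmic reticulum (ER) chaperones and the genes of the unfolded protein response were followed in the intestinal epithelium of mice with and without hexokinase 2 during colitis. The set held 33 genes, chosen by name from a fixed list, and all 33 were found by gene symbol among the 46078 genes counted. They comprised 11 chaperones and co-chaperones, 4 protein disulfide isomerases, 5 stress sensors and transcription factors, 7 genes of ER-associated degradation and 6 genes of protein translocation into the ER. RNA of intestinal epithelial cells, as the samples are labelled, was sequenced from 38 C57BL/6 mice; the series' own design text speaks of colon tissue.

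The knockout mice (KO, Hk2∆IEC) carried floxed Hk2 alleles and a Cre recombinase driven by the Villin promoter, which is active in intestinal epithelial cells, so that cells of other types keep the gene. The wild-type mice (WT) were littermates with floxed Hk2 (Hk2 fl/fl), so floxed alleles were common to all groups, and both genotypes shared cages. The mice were untreated (day 0) or had received 1.5% dextran sodium sulfate (DSS), an agent that injures the colonic epithelium, in the drinking water and were sampled on day 3 or day 7. The DSS-treated mice were males of 10 to 12 weeks. The basal phenotyping used mice of 9 to 11 or of 86 to 92 weeks, and the labels give no further age for the day 0 mice. The groups held 4 WT and 5 KO mice at day 0, 7 WT and 8 KO mice at day 3, and 7 WT and 7 KO mice at day 7. Each library is 1 animal.

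Proteins bound for the cell surface, for secretion or for the mucus layer are threaded into the ER through the Sec61 channel, folded with the help of chaperones, and fixed by disulfide bonds. Unfolded protein in the ER is sensed by the membrane proteins IRE1, PERK and ATF6, which cut back protein synthesis and switch on chaperone and degradation genes, partly through the transcription factor XBP1. Goblet and Paneth cells secrete much protein and are known to depend on this response, and IRE1β (Ern2) is a form of the sensor found in mucus-producing epithelium.

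The DNA element through which ATF6 and XBP1 act on many chaperone genes, the ER stress response element (ERSE), was sought in RefSeq promoter windows (GRCm38.p6, 250 bases before to 50 after the gene start). It was searched on both strands as CCAAT and CCACG separated by any 9 bases. Of the 33 genes, 26 had a window, and 9 of these 26 held the element, against 0.137% of 27025 genes in the whole table. The matches are shown because 6 of the 9 chaperone windows held one, those of Dnajb9, Dnajb11 and Sdf2l1 being without. The 9 spaced letters are in lower case, the matched letters in capitals, and each match is written from CCAAT to CCACG.
Hspa5: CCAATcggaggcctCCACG
Hsp90b1, far site: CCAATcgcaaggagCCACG
Hsp90b1, near site: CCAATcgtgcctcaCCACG
Calr: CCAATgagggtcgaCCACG
Canx: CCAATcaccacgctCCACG
Dnajc3: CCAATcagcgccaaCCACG
Creld2: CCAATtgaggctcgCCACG
Pdia6: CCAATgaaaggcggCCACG
Syvn1: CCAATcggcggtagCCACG
Derl3: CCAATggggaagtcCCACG

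The Hspa5 match lay at chr2:34772025-34772043 on the + strand, 65 to 47 bases before the RefSeq start, with position -1 as the base before the start. In the annotation used for counting, Hspa5 began further upstream, at chr2:34771970, so the match lay inside the gene as counted. The 2 Hsp90b1 matches began 212 and 107 bases before the start of that gene, and the Syvn1 match, at 44 bases, began closest to its start. The shorter element ERSE-II, sought as ATTGG and CCACG separated by any 1 base, was in 2 of the 26 windows, against 0.0444% of all genes.
Herpud1: ATTGGgCCACG
Dnajb11: ATTGGcCCACG

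The Herpud1 match was at chr8:94386377-94386387 (52 to 42 bases before the start), whereas the Dnajb11 match lay 7 to 17 bases after the start. The core of a further XBP1 element, the UPRE, was in 0 of the 26 windows and in 0.714% of all genes. The plain CCAAT letters, which are part of every ERSE match, were in 20 of the 26 windows and in 41.1% of all genes. No window entry was matched for Atf6, Derl1, Ern2, Hyou1, Manf, Sec61a1 and Ssr2. A match describes letters in a window and is not evidence of binding. As an example of such a window, the 150 bases before the Hspa5 start, chr2:34771940-34772089 on the + strand, are printed with the ERSE in capitals.
Hspa5 upstream: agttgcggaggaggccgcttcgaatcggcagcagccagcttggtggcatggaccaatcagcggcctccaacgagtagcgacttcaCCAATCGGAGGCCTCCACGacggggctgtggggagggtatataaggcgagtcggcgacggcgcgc

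Total counts were 10.5 M to 60.6 M per library (median 43.2 M), so that 3 counts, the limit that a count of 0 allows, were 0.0495 to 0.286 CPM, that is counts scaled to library size. The day 0 libraries stood apart from the others: histone genes took 0.266% to 0.413% of their counts against 0.012% to 0.0541% at days 3 and 7, and mitochondrial rRNA 6.25% to 13.8%, with d0_KO_32 alone at 45.6%, against 0.352% to 3.95%. Library series is read here from these shares, and the sample labels name no batch. In what follows, any contrast with day 0 is also a contrast of library series, and these cannot be told apart. Sex and a single age range are stated above for the DSS-treated mice alone, so age and sex may differ from day 0 as well. The targeted gene Hk2 was at 254 to 449 CPM in WT and 33.1 to 118 CPM in KO at day 0, a log2 difference of -2.20 ± 0.30 (SE; edgeR quasi-likelihood test, adjusted p = 0.033). At day 7 the difference was -1.25 ± 0.30 (adjusted p = 0.29 by edgeR, 0.0119 by DESeq2). At day 3 it was -0.27 ± 0.33 (edgeR adjusted p = 0.80). Hk2 stood at 435 CPM in the library labelled d3_KO_345, against 68.4 to 128 CPM in the rest of its group. Leaving it out gave -0.74. The library labelled d7_KO_420 had 268 CPM, within the WT range of day 7 (228 to 611 CPM), against 56.1 to 195 CPM in the rest of its group, and without it the day 7 difference was -1.48 (edgeR adjusted p = 0.0665). The library labelled d3_WT_346, at 97.0 CPM, was the lowest of WT day 3 (97.0 to 221 CPM) and lay within the KO range. Results without these 3 libraries are therefore given for part of the contrasts. The medians by role, the ERSE split and several single-gene differences are given with all libraries only. Epithelial markers (Epcam, Cdh1, Vil1, keratins, Cdx2) summed to 7466 to 13382 CPM over all libraries. Of 5 Paneth cell markers, Defa17 and Defa24 were at 0 in every library of days 3 and 7, while the sum of the 5 was 6.80 to 471 CPM there, Ang4 alone being at 4.94 to 469.97 CPM. At day 0 the sum of the 5 was 7.83 to 102 CPM in WT and 5.98 to 689 CPM in KO, highest in d0_KO_54. The part of Paneth cells in the members' levels was not tested.

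Levels are given as CPM after TMM scaling, the edgeR correction for differences in RNA composition. Per kilobase of exon, the most abundant of the 33 transcripts were P4hb (294 CPM per kb, mean of the 6 group means), a disulfide isomerase, Calr (267), the calcium-binding chaperone calreticulin, and Hspa5 (264), the HSP70 chaperone BiP. Pdia3 (199), Hsp90b1 (149, the ER form of HSP90) and Canx (99.3, calnexin) came next. The transmembrane sensors lay near the bottom of the order: Eif2ak3, the gene of PERK, was at 8.82, Atf6 at 7.88 and Ern1, the gene of the ubiquitous IRE1α, at 6.92 CPM per kb. Ern2 was at 37.997 CPM per kb and so above Ern1 in this order. Derl3, a derlin of the degradation machinery, was lowest at 0.351 CPM per kb, and its neighbour Ern1 was the only one in the order that was separated from the next gene in every library. All other neighbours overlapped.

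**Figure D1:**
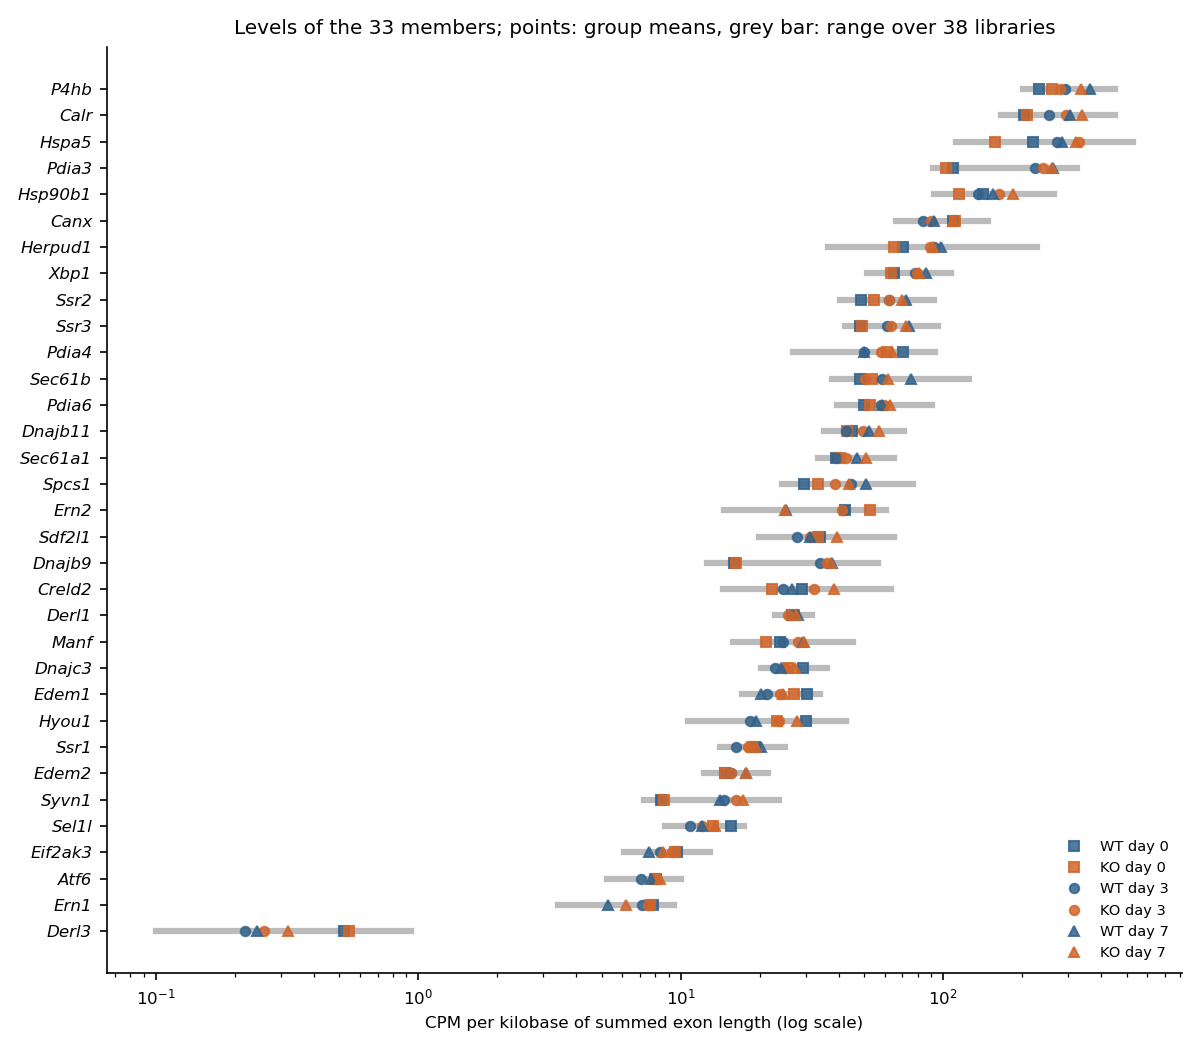
Level of each of the 33 genes in CPM per kilobase of summed exon length (log axis), ordered by the mean of the 6 group means. Symbols are group means (squares day 0, circles day 3, triangles day 7; blue WT, orange KO) and grey bars span the 38 libraries; P4hb, Calr and Hspa5 lie at the top and Derl3 lies apart at the bottom.

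The members differed in how much they varied between mice of one group. The coefficient of variation stayed lowest across the 6 groups, by its highest value, for Derl1 (6.41% to 10.2%) and Edem1 (7.47% to 10.8%), which act in the disposal of misfolded protein. It was 32.5% to 51.2% for Derl3, at levels of 0.291 to 0.730 CPM (group means). Herpud1 reached 66.1% in KO day 7 through the library labelled d7_KO_420 (532.5 CPM against 131 to 179.7 CPM in the others), without which it was 13.1%, and had 15.1% to 26.8% in the other 5 groups. Summed over the 33 genes, WT libraries of day 0 had 6685 ± 708 CPM (SD, n = 4) and KO libraries 6297 ± 696 CPM (n = 5). At day 3 it was 7407 ± 980 CPM (n = 7) in WT and 8135 ± 1441 CPM (n = 8) in KO, and at day 7 it was 8305 ± 949 CPM and 8847 ± 1177 CPM (n = 7 each). The summed level is carried by the abundant chaperones and isomerases and weights the sensors little.

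High and low values of many members fell in the same mice. In WT day 3, the library labelled d3_WT_346 had the highest level of its group for 23 of the 33 genes, and in KO day 3 the library labelled d3_KO_345 did so for 27, all 11 chaperones among them. In KO day 7, d7_KO_368 was highest for 24 genes and the library labelled d7_KO_420 lowest for 16, and in WT day 7, d7_WT_386 was highest for 15. At day 0, d0_WT_46 was lowest for 24 genes and d0_KO_32 for 21, while d0_WT_31 was highest for 20 and d0_KO_54 for 18. The total of d0_WT_46 was 44.9 M counts, against 10.5 M to 18.9 M in the other day 0 libraries. Besides its mitochondrial rRNA, d0_KO_32 had a TMM factor of 0.487 and summed goblet cell markers of 9094 CPM, against 24915 to 40139 CPM in the rest of its group. The library labelled d3_KO_345 also had the highest summed neutrophil (162 CPM) and macrophage (128 CPM) markers of its group, and d7_KO_368 the highest stromal (209 CPM) and macrophage (435 CPM) markers of its group. The part of these cells in the chaperone levels was not tested.

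From day 3 to day 7 of DSS, the change that was called in both genotypes was a fall of the sensor gene Ern2. Calls are at a Benjamini-Hochberg adjusted p under 0.05 over all genes tested. Of the 33 genes, 2 were called in WT (Ern2 lower, Ssr1 higher) and 1 in KO (Ern2 lower), that is 6.06% and 3.03%, against 19.3% of all genes tested in each genotype (10.6% higher and 8.7% lower in WT, 10.5% higher and 8.83% lower in KO). The median log2 difference of the 33 genes was 0.12 in WT and 0.10 in KO, with 26 of 33 positive in each, beside medians over all genes of 0.01 and -0.01. At an unadjusted p under 0.05 there were 6 higher and 2 lower in WT, beside 17% and 15.2% of all genes, and 3 higher and 2 lower in KO, beside 15.8% and 14.8%.

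Ern2 (ENSMUSG00000030866, chr7:122169893-122186216, - strand, GRCm38; counted over its exons) encodes IRE1β. In WT it ranged from 64.2 through a median of 130.1 to 153 CPM at day 3 and from 43.4 through 81.7 to 91.7 CPM at day 7. In KO it ranged from 96.1 through 124 to 145 CPM at day 3 and from 54.3 through 73.7 to 91.9 CPM at day 7. Every KO library of day 7 lay below every KO library of day 3, as 1 of the 33 genes against 5.07% of all genes without overlap in either direction, whereas in WT the day 3 library d3_WT_381, at 64.2 CPM, lay within the day 7 range, and 0 of the 33 genes were separated in WT against 4.6% of all genes. The log2 difference was -0.75 ± 0.18 in WT (edgeR adjusted p = 0.0098) and -0.76 ± 0.11 in KO (adjusted p = 0.00017). The call held with each library left out in turn in both genotypes.

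Goblet cells, in which Ern2 is expressed, were followed by 10 markers. Their sum went from 10014 to 16221 CPM at day 3 (median 13188) to 7599 to 12197 CPM at day 7 (median 9002) in WT, and from 10665 to 20914 (median 15944) to 6698 to 11238 (median 8255) in KO. In WT, 2 of 10 fell (Klk1 by 1.24 and Clca1 by 1.57 on the log2 scale) and 1 rose (Clca3a1), beside the 8.7% and 10.6% of all genes. In KO, 6 of 10 fell, among them Clca1 by 2.66 and Fcgbp by 1.39, beside 8.83% of all genes. None was at 0. In bulk RNA, fewer cells of a type and less RNA per cell cannot be told apart, and the part of goblet cells in the Ern2 difference was not tested.

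Among the other sensors, Ern1 was at 37.1 to 68.6 CPM at day 3 and 30.3 to 58.0 CPM at day 7 in WT, and at 53.2 to 72.0 CPM and 27.9 to 60.01 CPM in KO. Both genotypes overlapped between days. The log2 difference was -0.45 ± 0.16 in WT (edgeR adjusted p = 0.061) and -0.32 ± 0.13 in KO (adjusted p = 0.096). Neither was called, although DESeq2, a single fit of all 38 libraries and fits without d3_WT_381, d7_WT_370 or d7_WT_419 called Ern1 lower in WT, and the fit without the library labelled d7_KO_420 called Ern1 and Herpud1 lower in KO. Eif2ak3 differed by -0.15 ± 0.14 and -0.16 ± 0.11. Atf6 and Xbp1 differed by 0.11 ± 0.11 and 0.12 ± 0.11 in WT and by 0.01 ± 0.05 and -0.01 ± 0.10 in KO, without a call.

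Ssr1 (ENSMUSG00000021427, chr13:37971401-37994190, - strand) encodes the α subunit of the translocon-associated protein complex. It ranged from 131 through 151 to 171 CPM at day 3 and from 165 through 185 to 232 CPM at day 7 in WT, the ranges touching only between 165 and 171 CPM. It rose by a log2 difference of 0.30 ± 0.09 (edgeR adjusted p = 0.029). This call was lost in 5 of 14 fits that left out 1 library and without the filter on low counts (adjusted p = 0.0546). In KO, Ssr1 ranged from 143 through 165 to 227 CPM at day 3 and from 158 through 175 to 223 CPM at day 7, with a log2 difference of 0.07 ± 0.10 (adjusted p = 0.70). The test of the difference between genotypes gave -0.21 ± 0.13 (adjusted p = 1), so the changes of WT and KO were not shown to differ.

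All 6 translocation genes had positive differences in both genotypes, with medians of 0.26 in WT and 0.14 in KO. Besides Ssr1, Ssr3 differed by 0.26 ± 0.10 in WT and Sec61a1, the channel-forming subunit, by 0.25 ± 0.09 (edgeR adjusted p = 0.069 and 0.068), neither of them called. Without the library labelled d3_KO_345, 4 genes were called higher in KO (Sec61b, Sec61a1, Ssr3 and P4hb), against 22.2% of all genes in either direction. Without d3_WT_381, 4 were called higher in WT (Dnajb11, Ssr1, P4hb and Sec61b), against 25.7% of all genes in either direction. The 11 chaperones had medians of 0.13 in WT and 0.16 in KO, and edgeR called none of them with all libraries. Dnajb11 was called higher in WT by DESeq2, which called 24.5% of all genes. It was also called by edgeR without d3_WT_381 or without the library labelled d3_WT_346 (18.9% of all genes in the latter fit). Canx was called higher in KO without the library labelled d7_KO_420, against 22.4% of all genes in either direction. Hspa5 differed by 0.05 ± 0.21 in WT and -0.07 ± 0.16 in KO.

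**Figure D2:**
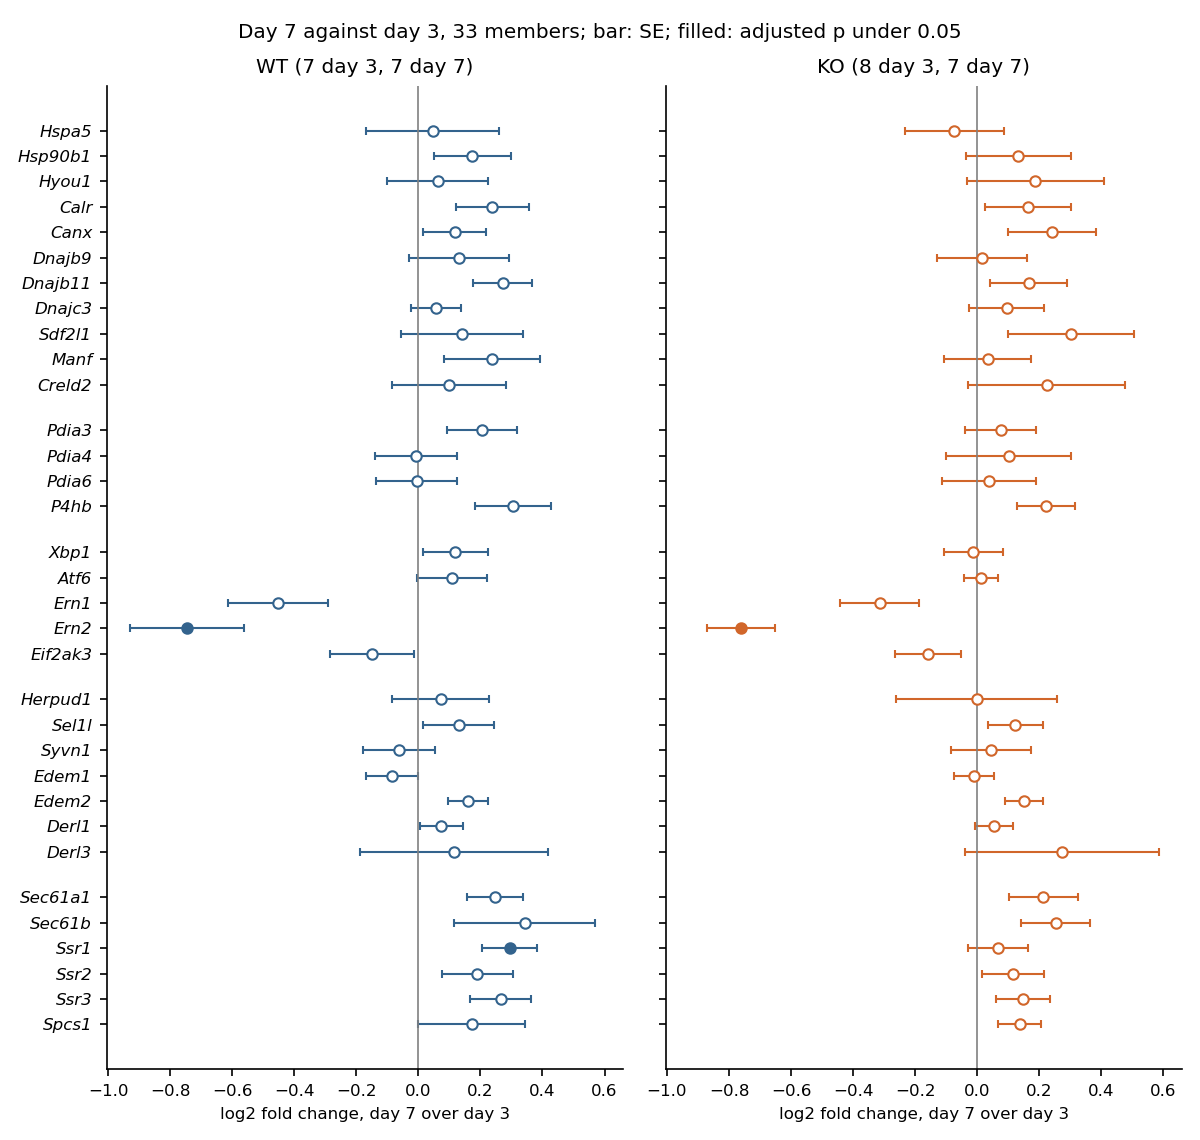
Log2 fold change of day 7 over day 3 for the 33 genes, grouped by role from the chaperones at the top to translocation at the bottom, in WT (left) and KO (right). Bars are SE and filled points passed an adjusted p of 0.05: Ern2 is filled in both panels and Ssr1 in WT alone.

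Immune markers changed far more between these days. All 8 neutrophil and all 7 macrophage markers rose in both genotypes, as did 7 of 7 tested plasma and B cell markers in WT and 3 of 7 in KO, and 2 of 7 T cell markers in WT and 7 of 7 in KO. The neutrophil sum went from 8.04 to 44.5 CPM at day 3 to 151 to 1113 CPM at day 7 in WT and from 13.4 to 162 to 127 to 1844 CPM in KO. The macrophage sum went from 38.6 to 47.9 to 84.5 to 314 CPM in WT and from 34.1 to 128 to 87.3 to 435 CPM in KO. Their part in the members' differences was not tested.

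Loss of Hk2 was compared with WT on each day, and no member passed the test on any day. At day 3 and day 7 the KO means of most chaperones lay above WT, and at day 0 most lay below. By edgeR, 0 of 33 genes were called at day 0, day 3 and day 7, against 0.0335% (0.0201% higher, 0.0134% lower), 0.00647% and 0.00642% of all genes tested, so that few genes of any kind were called. At an unadjusted p under 0.05 there were 3 members at day 0 (all lower), 3 at day 3 (all higher) and 4 at day 7 (all higher), beside 4.89%, 3.52% and 6.04% of all genes in the same direction. DESeq2 called 0 members on each day, and 1.17%, 0.0129% and 0.571% of all genes. The median log2 difference was -0.03 at day 0 (14 of 33 positive), 0.13 at day 3 (26 of 33) and 0.11 at day 7 (21 of 33), beside medians over all genes of -0.00 on each day. Over fits that each left out 1 library, the members' median ran from -0.09 to 0.03 at day 0 (0.03 without d0_KO_32), from 0.07 (without the library labelled d3_KO_345) to 0.18 (without the library labelled d3_WT_346) at day 3 and from 0.07 to 0.14 at day 7.

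With days 3 and 7 fitted together and day as a term, edgeR called 0 of 33 members, against 0.0122% of all genes tested. At an unadjusted p under 0.05, 10 members were higher and 1 was lower in KO, beside 9.02% and 12.5% of all genes, and the median difference was 0.15 (24 of 33 positive), beside -0.01 over all genes. DESeq2 and a single fit of all 38 libraries each called 1 member, Edem1, higher, that is 3.03% of the members against 3.46% and 0.831% of all genes in either direction. For 0 of the 33 genes were KO and WT separated on day 0, day 3 or day 7, against 3.39%, 0.0323% and 0.282% of all genes.

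The edgeR calls over days 3 and 7 depended on the libraries whose Hk2 level went against the label. All but the fit without the library labelled d3_KO_345 were added after the data were seen, and no further library was left out of this comparison. Without the library labelled d3_KO_345 the median was 0.12 and edgeR called 0 members. With the library labelled d3_WT_346 left out the median was 0.15 and 2 members were called higher (Edem1 and Hyou1), against 3.36% of all genes in either direction. With the library labelled d7_KO_420 left out it was 0.14 and 3 were called higher (Edem1, Hyou1 and Creld2), against 2.85% of all genes in either direction. Without all 3 libraries the median was 0.13 and 7 of 33 were called higher (Hyou1, Edem1, Creld2, Pdia4, Hsp90b1, Syvn1 and Canx) and 0 lower, against 8.11% of all genes in either direction. The share of all genes called higher alone was not computed for these fits. The libraries labelled d3_WT_346 and d3_KO_345 were the highest of their groups for 23 and 27 members, and the library labelled d7_KO_420 the lowest of its group for 16. For such members, leaving out d3_WT_346 or d7_KO_420 by itself raises KO over WT, and leaving out d3_KO_345 lowers it. The library labelled d7_KO_420 also had the highest summed neutrophil markers of its group (1844 CPM, group median 204 CPM). Cells of other types keep Hk2, and their part in its Hk2 level was not tested.

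Edem1 (ENSMUSG00000030104, chr6:108828641-108859356, + strand), whose product draws misfolded glycoproteins from the folding cycle for degradation, had the smallest p of the members over days 3 and 7. At day 3 it ranged from 108 through 127 to 142 CPM in WT and from 128 through 138 to 153 CPM in KO. At day 7 it ranged from 101 through 115 to 134 CPM in WT and from 127 through 140 to 167 CPM in KO. The KO medians lay above on both days and the ranges overlapped on both. The log2 difference was 0.18 ± 0.07 at day 3, 0.27 ± 0.08 at day 7 and 0.22 ± 0.05 together (edgeR adjusted p = 0.62, 0.29 and 0.073). DESeq2 gave an adjusted p of 0.0129, and edgeR without the 3 libraries gave 0.24 ± 0.05 (adjusted p = 0.0167). At day 0 the WT libraries had 188, 199, 158 and 167 CPM and the KO libraries 155, 132, 173, 167 and 167 CPM, a difference of -0.18 ± 0.11 that was -0.11 without d0_KO_32, the library at 132 CPM.

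Hyou1 (ENSMUSG00000032115, chr9:44379490-44392369, + strand) encodes a large HSP70-like chaperone that serves as a nucleotide exchange factor for BiP. It ranged from 105 through 118 to 206 CPM in WT and from 123 through 168 to 248 CPM in KO at day 3, and from 94.8 through 147 to 175 and from 76.9 through 202 to 309 CPM at day 7. The lowest KO library of day 7, at 76.9 CPM, was the library labelled d7_KO_420, whose Hk2 was within the WT range. The log2 difference was 0.38 ± 0.17 at day 3, 0.52 ± 0.22 at day 7 and 0.44 ± 0.14 together (edgeR adjusted p = 0.62, 0.36 and 0.10). Without the library labelled d7_KO_420 the day 7 difference was 0.66 (adjusted p = 0.0665), and without the 3 libraries together the difference over both days was 0.54 ± 0.10 (adjusted p = 0.0167).

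Creld2 (ENSMUSG00000023272, chr15:88819646-88826681, + strand), a secretory-pathway protein induced by ER stress, had the largest difference of the 33 genes at days 3 and 7. It ranged from 24.3 through 28.97 to 51.5 CPM in WT and from 27.4 through 40.4 to 69.0 CPM in KO at day 3. At day 7 the ranges were 23.4 through 35.5 to 49.4 CPM and 19.7 through 53.4 to 86.1 CPM, the lowest again being the library labelled d7_KO_420. Its log2 difference was 0.40 ± 0.20 at day 3, 0.54 ± 0.24 at day 7 and 0.46 ± 0.16 together (edgeR adjusted p = 0.62, 0.37 and 0.12), and 0.68 at day 7 without that library (adjusted p = 0.0706). At day 3, leaving out the library labelled d3_KO_345 gave 0.29 for Hyou1 and 0.29 for Creld2. Leaving out the library labelled d3_WT_346 gave 0.515 and 0.536. At day 0, Hyou1 and Creld2 each differed by -0.38, with SEs of 0.18 and 0.20, and by -0.28 and -0.30 without d0_KO_32.

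Hspa5 (ENSMUSG00000026864, chr2:34771970-34777547, + strand), the master chaperone that also holds the sensors inactive, had 1055, 952, 979 and 732 CPM in WT at day 0 and 652, 474, 696, 782 and 740.0 CPM in KO. All KO libraries lay below 3 of the 4 WT libraries, and 2 KO libraries lay above the lowest WT library, d0_WT_46. The lowest KO library, at 474 CPM, was d0_KO_32. The difference was -0.49 ± 0.16 (edgeR adjusted p = 0.37), and -0.37 without that library. At day 3, Hspa5 ranged from 862 through 974 to 1962 CPM in WT and from 1025 through 1254 to 2241 CPM in KO, and at day 7 from 799 through 1109 to 1998 CPM and from 999 through 1444 to 1745 CPM. The highest libraries were the library labelled d3_WT_346, the library labelled d3_KO_345 and d7_WT_386, and the ranges overlapped throughout. The difference was 0.28 ± 0.19 at day 3 and 0.17 ± 0.18 at day 7 (edgeR adjusted p = 0.67 and 0.69). Leaving out 1 library at a time gave 0.16 (without the library labelled d3_KO_345) to 0.46 (without the library labelled d3_WT_346) at day 3, and 0.09 (without d7_WT_361) to 0.35 (without d7_WT_386) at day 7.

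**Figure D3:**
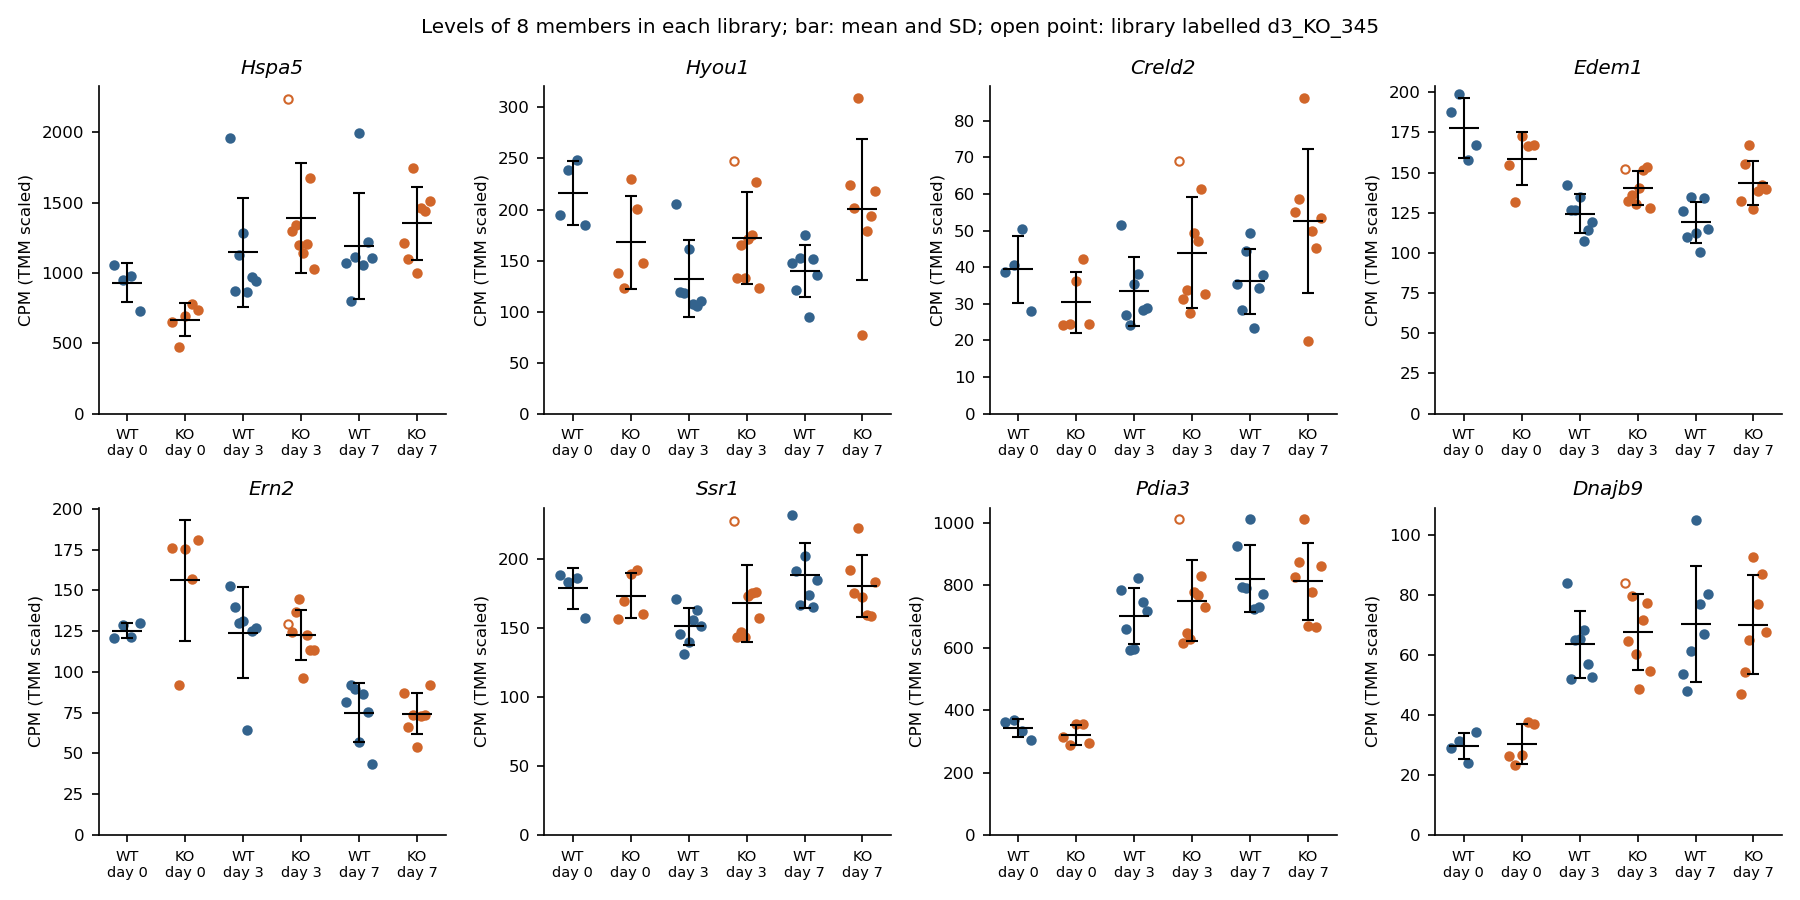
TMM-scaled CPM of 8 members in each library by group (blue WT, orange KO); bars are the mean and SD, and the open point is the library labelled d3_KO_345. The groups of each day overlap between genotypes for all 8 genes, Ern2 is lower at day 7 than at day 3, and Pdia3 and Dnajb9 are higher at days 3 and 7 than at day 0.

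By role, the differences over days 3 and 7 had a median of 0.18 for the chaperones (11 of 11 positive, 5 at an unadjusted p under 0.05) and 0.16 for the degradation genes (4 of 7 positive). Of all genes, 9.02% were higher at an unadjusted p under 0.05 by edgeR in this comparison. The medians were 0.15 for the sensors and transcription factors, 0.05 for the disulfide isomerases and -0.01 for the translocation genes. At day 0 the chaperone median was -0.19, with 3 of 11 positive. Sec61b and Spcs1, subunits of the translocation channel and of the signal peptidase, went the other way from the chaperones, with -0.25 ± 0.13 and -0.21 ± 0.09 over days 3 and 7. None of these values passed the edgeR test with all libraries. The highest WT levels of Sec61b and Spcs1 were in d3_WT_381 (134.1 and 107.7 CPM) and d7_WT_386 (159.0 and 118.5 CPM). In the same order, these libraries had 26.7 M and 25.2 M counts and TMM factors of 0.682 and 0.845. They had the fewest genes detected of days 3 and 7 (19084 and 19831). The comparison over days 3 and 7 was not refitted without those libraries. The 9 genes with an ERSE had a median of 0.21 at day 3 and 0.24 at day 7, all 9 positive on both days. The 17 genes whose window lacked one had medians of 0.09 (12 of 17 positive) and -0.01 (8 of 17 positive). At day 0 the medians were 0.01 and -0.04. This split is given without a test, and 6 of the 9 ERSE genes are chaperones.

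**Figure D4:**
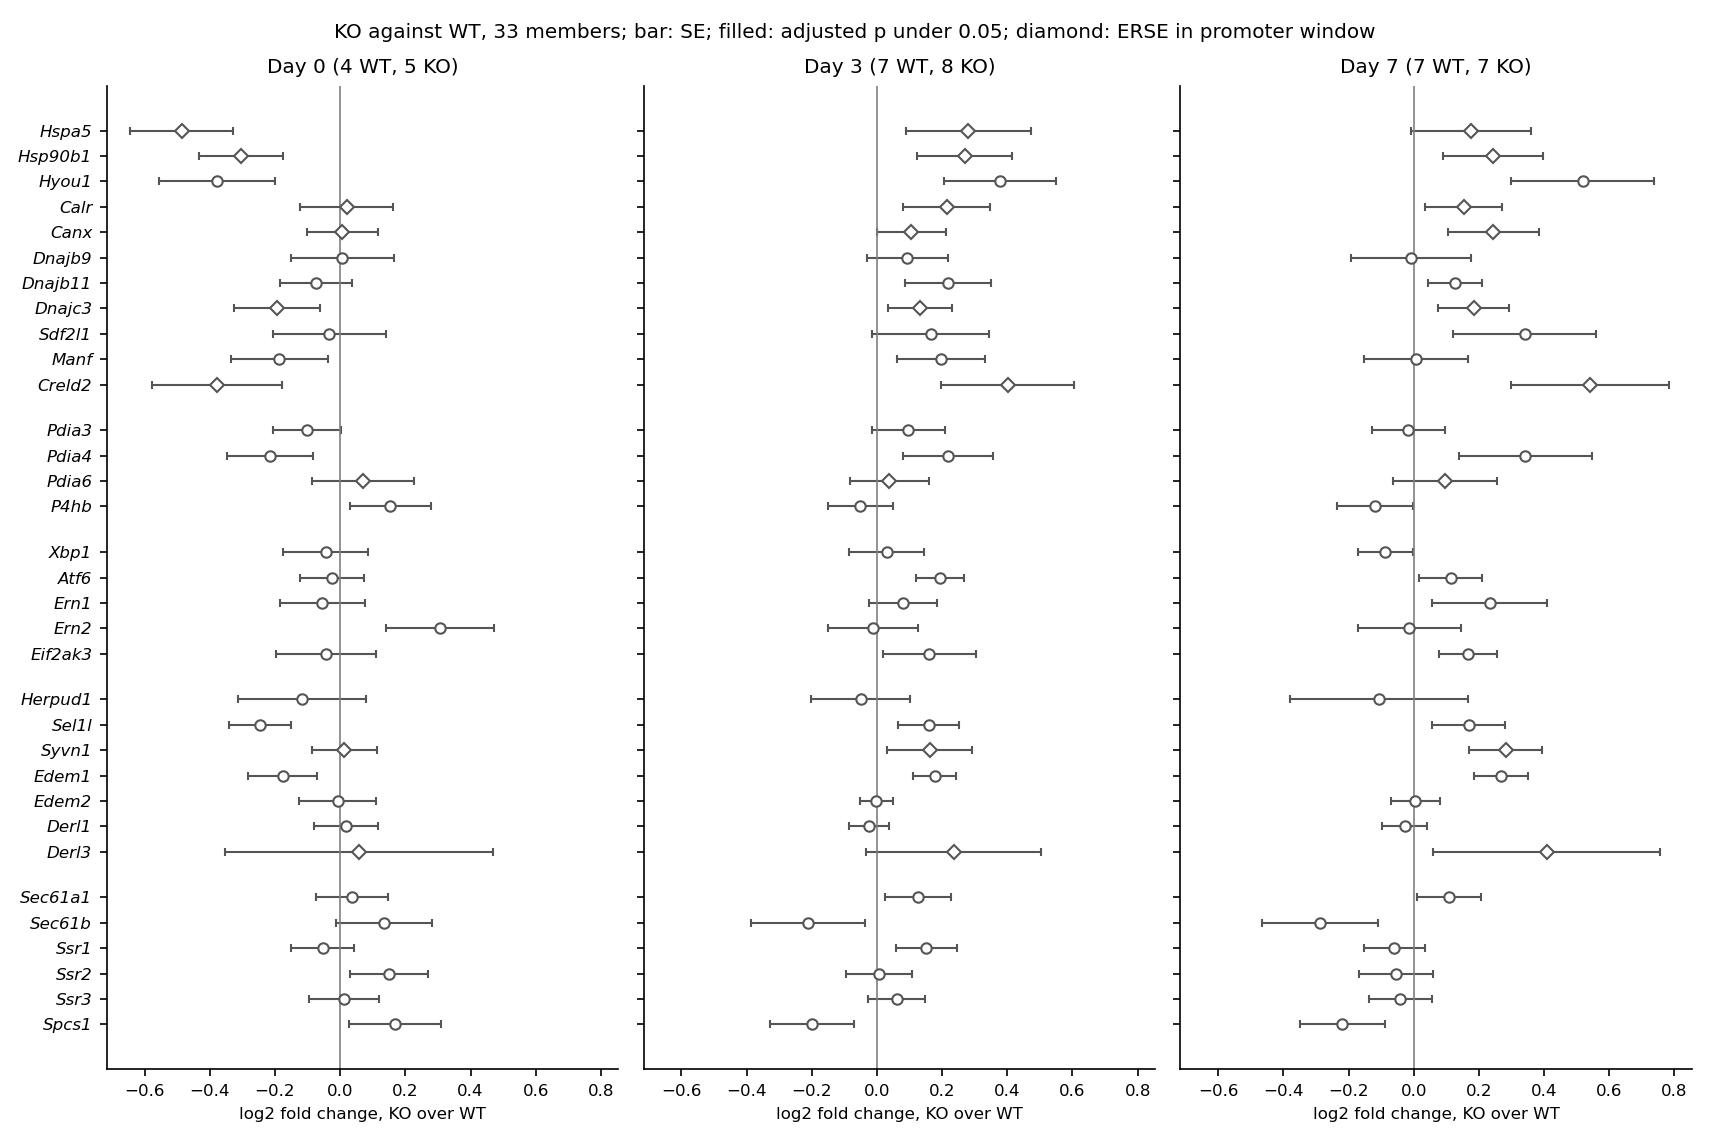
Log2 fold change of KO over WT for the 33 genes at day 0, day 3 and day 7, grouped by role; bars are SE and diamonds mark the 9 genes with an ERSE in the promoter window. All points are open because none passed an adjusted p of 0.05; the chaperones lie mostly left of 0 at day 0 and right of 0 at days 3 and 7.

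Immune markers were compared between the genotypes in the same way. At day 3 all 7 macrophage markers had positive differences (median 0.74), none of them called by edgeR and 3 at an unadjusted p under 0.05, and the macrophage sum was 38.6 to 47.9 CPM in WT and 34.1 to 128 CPM in KO, with the highest value in the library labelled d3_KO_345. With the mean log2 level of the immune markers as a covariate, the members' median at day 3 was -0.04 in place of 0.13 and Hspa5 differed by -0.03 in place of 0.28. With the same covariate the median at day 7 was 0.11, as without it, and Hspa5 differed by 0.18, and over days 3 and 7 the values were 0.11 and 0.19. At day 0, markers of small intestine enterocytes summed to 2.68 to 8.27 CPM in WT and 9.03 to 165 CPM in KO, and stromal markers to 4.42 to 16.8 and 7.04 to 32.9 CPM. Their part in the day 0 differences was not tested.

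The interaction of genotype and day tested whether the KO differences themselves differed between days. Between days 3 and 7, edgeR called 0 of 33 members and 0% of all genes, DESeq2 called 0 members and 0% of all genes, and 0 members had an unadjusted p under 0.05. Between day 0 and days 3 and 7, in fits added after the data were seen, edgeR and DESeq2 also called 0 members, against 0% (days 0 and 3) and 0.00531% (days 0 and 7) of all genes by edgeR and 0.433% and 0.786% by DESeq2. At an unadjusted p under 0.05, 6 members were higher in the first and 8 in the second, beside 5.45% and 7.55% of all genes, and none was lower. Without the library labelled d7_KO_420, edgeR called 1 member higher between days 0 and 7 (Hyou1, 1.04, adjusted p = 0.039), against 1.5% of all genes in either direction. Without the library labelled d3_KO_345 or d3_WT_346 it called 0 between days 0 and 3, and Hspa5 had 0.62 and 0.93. None of these interactions was refitted without d0_KO_32. Leaving that library out reduced the day 0 differences of Hspa5, Hyou1, Creld2 and Edem1 in size, to -0.37, -0.28, -0.30 and -0.11. With all libraries, Hspa5 had an interaction of 0.75 ± 0.29 and 0.69 ± 0.27, Hyou1 of 0.74 ± 0.28 and 0.93 ± 0.32, Creld2 of 0.77 ± 0.33 and 0.96 ± 0.36, and Edem1 of 0.34 ± 0.12 and 0.47 ± 0.13. The smallest adjusted p of the members was 0.255 and 0.173, both for Edem1.

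Against day 0, DSS-treated libraries of both genotypes had higher Pdia3, Dnajb9 and Syvn1. The library series, as read from library composition, changed with the day, and age and sex may have, so none of these can be named as the source. In WT at day 3, 5 members were called higher and 8 lower, beside 20.4% and 25.6% of all genes. In WT at day 7, 12 were higher and 9 lower, beside 27.8% and 29.2% of all genes. In KO at day 3, 10 were higher and 1 lower, beside 22.6% and 23.7% of all genes, and at day 7, 16 were higher and 1 lower, beside 27.3% in each direction. In the same order, 39.4%, 63.6%, 33.3% and 51.5% of the members were called in either direction, against 46%, 56.9%, 46.3% and 54.6% of all genes. The members' medians were -0.03 and 0.19 in WT and 0.09 and 0.25 in KO at days 3 and 7, beside all-gene medians of 0.03, 0.01, 0.01 and 0.01. The 4 comparisons share day 0 libraries within a genotype and are given side by side.

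Pdia3 (ENSMUSG00000027248, chr2:121413775-121438687, + strand), the disulfide isomerase that works with calnexin and calreticulin on glycoproteins, had 364, 368.3, 333 and 306 CPM in WT and 315, 288, 355.3, 355.9 and 295 CPM in KO at day 0. At day 3 it ranged from 592 through 718 to 822 CPM in WT and 617 through 751 to 1012 CPM in KO, and at day 7 from 725 through 791 to 1013 CPM and 666 through 827 to 1013 CPM. All libraries of days 3 and 7 lay above all day 0 libraries. The log2 differences were 1.02 ± 0.13 and 1.23 ± 0.13 in WT and 1.23 ± 0.13 and 1.31 ± 0.12 in KO at days 3 and 7 (edgeR adjusted p at most 2.4e-05). Dnajb9, a BiP co-chaperone, rose by 1.08 ± 0.14 and 1.21 ± 0.20 in WT and by 1.17 ± 0.15 and 1.19 ± 0.18 in KO. Syvn1, the ubiquitin ligase of ER-associated degradation, rose by 0.77 ± 0.15 and 0.71 ± 0.11 in WT and by 0.93 ± 0.13 and 0.98 ± 0.13 in KO.

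Hspa5 rose in KO by 1.07 ± 0.19 at day 3 (edgeR adjusted p = 0.00026; still called, at 0.93, with the library labelled d3_KO_345 left out) and by 0.99 ± 0.16 at day 7, whereas in WT it differed by 0.29 ± 0.22 and 0.33 ± 0.21 (adjusted p = 0.30 and 0.19). The interactions of Hspa5 above, which test this contrast between the genotypes, were not called. Hsp90b1 rose in KO by 0.52 ± 0.16 and 0.65 ± 0.17 and differed by -0.07 ± 0.14 and 0.11 ± 0.13 in WT. Hyou1 fell in WT by 0.72 and 0.66 on the log2 scale and differed by 0.05 ± 0.19 and 0.23 ± 0.26 in KO. Edem1 fell in WT by 0.53 and 0.61 and differed by -0.17 ± 0.08 and -0.17 ± 0.09 in KO, and Sel1l, the partner of the Syvn1 ligase, fell in WT by 0.53 and 0.40. Pdia4 (by 0.51 and 0.52) and Dnajc3 (by 0.37 and 0.31), an isomerase and a BiP co-chaperone, also fell in WT on both days.

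The remaining chaperones and isomerases were called in fewer of these comparisons. Calr was called higher at day 7 in both genotypes (0.55 ± 0.13 in WT, 0.68 ± 0.14 in KO) and at day 3 in KO. Manf, a secreted stress-induced protein, was called in KO alone (0.42 ± 0.16 and 0.45 ± 0.14), and Dnajb11 (0.39 ± 0.10) and Creld2 (0.77 ± 0.28) in KO at day 7. Fits of these contrasts were repeated without each day 0 library and without each library whose Hk2 went against its label. The day 3 call of Manf was lost in 5 of 6 such fits (0.30 without the library labelled d3_KO_345) and the call of Creld2 in 3 of 6. The interaction tests of these 3 genes were not called. Canx was lower in WT at day 3 (-0.39 ± 0.12), P4hb was higher at day 7 (0.62 ± 0.15 in WT, 0.34 ± 0.11 in KO), and Sdf2l1 and Pdia6 were called in none of the 4 comparisons.

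Of the sensors and factors, Ern2 was lower at day 7 than at day 0 in WT (-0.77 ± 0.17) and KO (-1.10 ± 0.16), and Ern1 (-0.60 ± 0.18) and Eif2ak3 (-0.38 ± 0.11) were lower in WT at day 7. Xbp1, whose mRNA is spliced by IRE1, was higher at day 7 in WT (0.37 ± 0.13) and on both days in KO (0.33 ± 0.12 and 0.33 ± 0.09), and Atf6 was called in none. Gene-level counts do not show Xbp1 splicing. Herpud1, a degradation factor of the ER membrane, was higher in WT at day 7 (0.46 ± 0.15) and in KO at day 3 (0.46 ± 0.18), and Edem2 at day 7 in both (0.24 ± 0.10 and 0.25 ± 0.10). Derl3 was lower in WT on both days (-1.24 ± 0.33 and -1.13 ± 0.37) and in KO at day 3 (-1.06 ± 0.35), at levels under 1.3 CPM in every library, and Derl1 was called in none. In translocation, Ssr3 was higher in all 4 comparisons (0.32 to 0.59), Spcs1 in 3, Ssr2 at day 7 in both genotypes, Sec61b in WT at day 7 (0.61 ± 0.22) and Sec61a1 in KO at day 7 (0.30 ± 0.11). Ssr1 was lower in WT at day 3 (-0.25 ± 0.10). Many of these calls were lost when 1 library was left out. In KO these were Herpud1 at day 3 (lost in 5 of 6 fits), Xbp1 (4 of 6) and Derl3 (2 of 6) at day 3, and Edem2 (3 of 6), Ssr2 (2 of 6) and Sec61a1 (1 of 6) at day 7. In WT they were Ssr1 and Spcs1 (3 of 5 each), Ssr3 (2 of 5) and Canx (1 of 5) at day 3, and Edem2, Derl3 and Sec61b (3 of 4 each), Xbp1, Herpud1 and Dnajc3 (2 of 4 each) and Sel1l (1 of 4) at day 7.

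**Figure D5:**
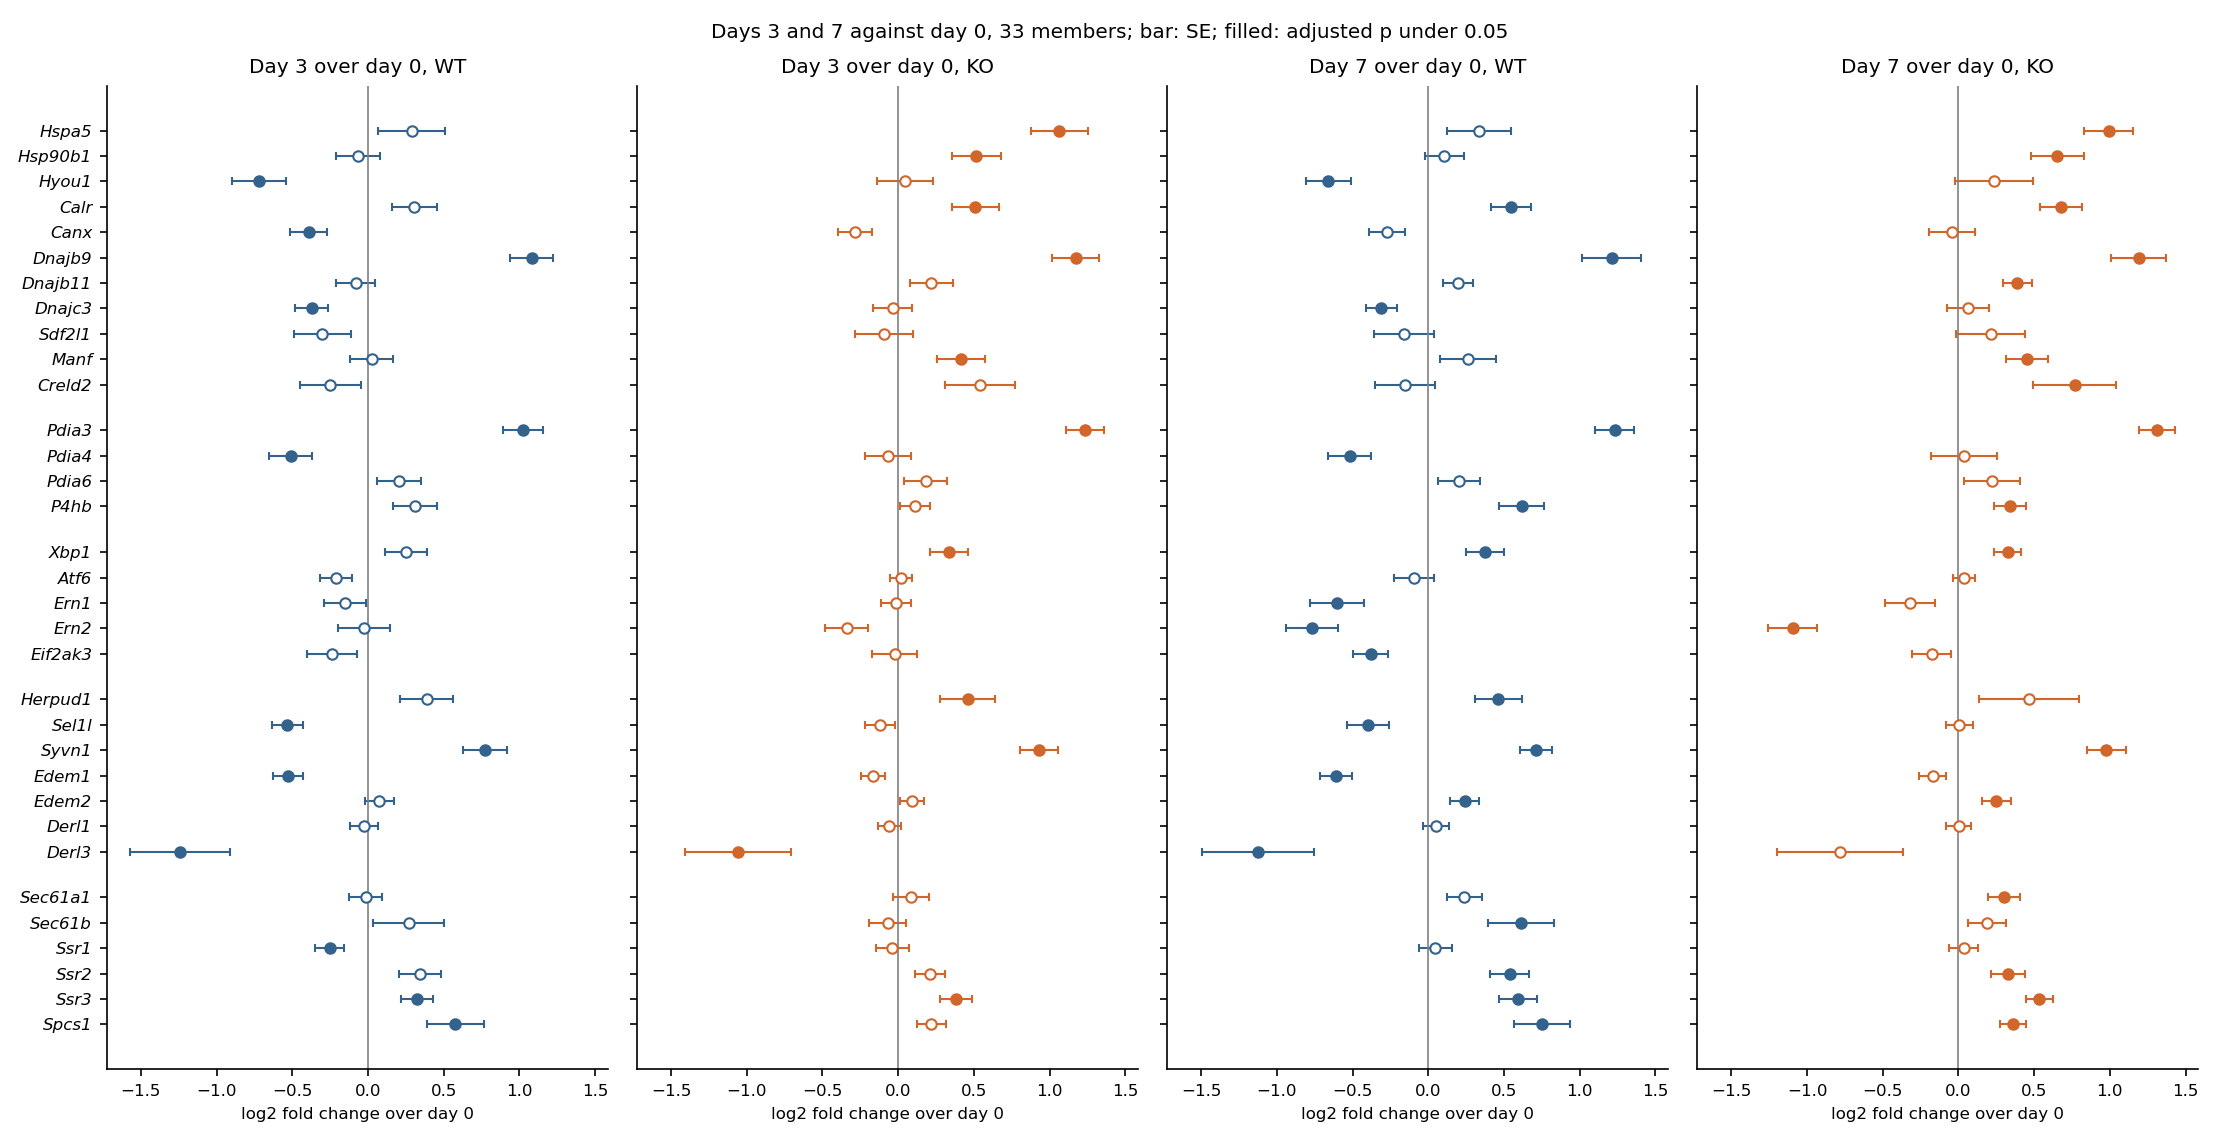
Log2 fold change of day 3 and day 7 over day 0 for the 33 genes in WT (blue) and KO (orange), grouped by role; bars are SE and filled points passed an adjusted p of 0.05. Pdia3, Dnajb9 and Syvn1 are filled and to the right in all 4 panels; Hspa5 is filled in the KO panels and open in the WT panels.

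Other genes of the pathway were read from lists that hold none of the 33. For their counts from day 3 to day 7, the shares of all genes called were 10.6% higher and 8.7% lower in WT. In KO the shares were 10.5% higher and 8.83% lower. From day 3 to day 7, 3 of 12 targets of PERK and ATF4 rose in WT: the cystine transporter gene Slc7a11 (2.89), Chac1 (1.195), which degrades glutathione, and Asns (0.52), asparagine synthetase. In KO, Slc7a11 rose (2.15) and Ddit3, the gene of the factor CHOP, fell by 0.77. Of 31 further folding and degradation genes tested, 2 rose (the oxidase Ero1l, 0.54, and Vcp, 0.30) and 2 fell (Txndc5 by 0.28, Mogs by 0.37) in WT, and 2 rose in KO (Ero1l, 0.52, and Erp29, 0.17). Of 20 translocon, signal peptidase and oligosaccharyltransferase genes tested, none was called in WT and 2 fell in KO (Tusc3 by 0.35, Sec62 by 0.23). Of 9 other ER stress factors, Creb3l3 (2.52) and Mbtps2 (0.36) rose and Creb3l1 (by 0.69) and Creb3l4 (by 0.38) fell in WT, and Creb3l1 fell by 0.73 in KO. By edgeR, 0 of 16 genes of ER to Golgi transport and 0 of 13 cytosolic and mitochondrial chaperones were called in either genotype.

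Between KO and WT, edgeR called none of the genes of these 6 lists on any day. The 13 cytosolic and mitochondrial chaperones, which include the heat shock proteins, had a median difference of 0.28 at day 3 (12 of 13 positive), 0.47 at day 7 (12 of 13) and 0.35 over both days (13 of 13, 9 at an unadjusted p under 0.05, smallest adjusted p 0.123), and of -0.17 at day 0. Over both days, 9.02% of all genes were higher at an unadjusted p under 0.05. These 13 genes were not examined without the libraries whose Hk2 went against the label, or with the immune marker covariate. The PERK and ATF4 targets had medians of 0.10 at day 3 and -0.16 at day 7.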

How the data were processed

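Polyadenylated RNA was sequenced as stranded paired-end libraries, per the labels' protocols. Reads were handled with Trim Galore, STAR and featureCounts on GRCm38, per the submitters' processing notes. The authors deposited whole-number read counts per gene, 1 file per lane, counted in pairs and without regard to strand per the file headers; the headers give featureCounts version 1.6.2 and the notes 1.5.2. Without strand, reads in exon bases shared with another gene cannot be assigned, and 9 of the 33 genes have such bases (most in Spcs1, 17.9% of its exon length, and Hsp90b1, 15.7%).

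The 2 lanes of each library were summed. Samples were grouped by their labels. Members and gene lists were chosen with earlier results of these data known, and all 33 members are named; of other lists up to 3 called genes per direction with the smallest p are named. Counts of the groups compared were tested with the edgeR 4.0.16 quasi-likelihood test in R 4.3.3 (TMM scaling, filterByExpr, Benjamini-Hochberg adjustment over all genes tested, threshold 0.05), checked on simulated data. All 33 members passed the filter in every comparison. Fold changes are log2 with SE. For edgeR, the SE was the size of the log2 fold change divided by the square root of the quasi-likelihood F. Alternatives were DESeq2 1.42.0 (size factors or Wald test), other filters, removal of mitochondrial and immunoglobulin genes, 1 fit of all 38 libraries, an immune marker covariate and leaving out libraries. Intervals and limits from counts cover counting error only. Sequences are from RefSeq.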

Additional observations from a re-analysis of the deposited data

Results flagged for a closer look

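Of 198 groups of values (33 genes in 6 groups), 22 held 1 library far from the others by Dixon's test at 95%, which chance alone gives in about 1 in 20 groups. Genes within a library are not independent. In the library labelled d3_WT_346, 6 genes were high: Hspa5 (1962 CPM), Hsp90b1 (784.9), Canx (505.9), Pdia4 (175.1), Xbp1 (341.7) and Eif2ak3 (78.0). The library labelled d3_KO_345 was high in Manf (153.6 CPM), Sec61a1 (384.8), Ssr1 (227.3) and Ssr3 (355.3). In d3_WT_381, Sec61b (134.1 CPM) and Spcs1 (107.7) were high and Atf6 (48.24) and Ern2 (64.19) were low. In the library labelled d7_KO_420, Herpud1 was high (532.5 CPM) and Ern1 low (27.9). Single genes stood out in d7_WT_386 (Hspa5, 1998 CPM), d7_KO_368 (Manf, 142.8), d7_WT_370 (Syvn1, 82.55) and d7_WT_356 (Sec61a1, 378.5), all high. At day 0, Dnajb11 was high in d0_KO_54 (162.4 CPM) and Ern2 low in d0_KO_32 (92.11 CPM).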

How the results depend on the processing

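Depth limits Derl3 most, at under 1.3 CPM. No paired analysis was possible because each animal number occurs in 1 group only. With the immune marker covariate the members' median at day 3, KO over WT, was -0.044 and Hspa5 reversed to -0.028. Over days 3 and 7, DESeq2 and the 38-library fit each called 1 member higher in KO, and leaving out the libraries labelled d3_KO_345, d3_WT_346 and d7_KO_420 called 0, 2 and 3 in turn and 7 together (chosen after seeing the data). Without the library labelled d7_KO_420 the interaction of days 0 and 7 had 1. For day 7 over day 3 in WT, higher members numbered 4 by DESeq2, 3 in the 38-library fit, 0 without a filter and 2 without d3_WT_381 and d7_WT_386 together (chosen after seeing the data), and lower members 2 by DESeq2, 2 in the 38-library fit and 2 without those libraries. The share of all genes called in either direction moved as well: 24.5% by DESeq2, 22.4% in the 38-library fit, 11% without a filter and 27.5% without those libraries. For KO day 3 over day 0, lower members numbered 2 with DESeq2 size factors, 4 by DESeq2 and 3 at a mean CPM of at least 1. In that order, 46.2%, 48% and 46% of all genes were called in either direction. Leaving out 1 library at a time gave, for day 7 over day 3, 0 to 4 higher and 1 to 2 lower in WT and 0 to 4 higher and 1 to 3 lower in KO. Those fits called 14.8% to 25.7% of all genes in WT and 16% to 22.4% in KO, in either direction. Over day 0, leaving out 1 library gave 3 to 9 higher in WT at day 3, 0 to 3 lower in KO at day 3 and 1 to 3 lower in KO at day 7. The all-gene shares there were 35.3% to 51%, 39.4% to 49.5% and 48.6% to 61.6%, in either direction. The day 7 over day 3 counts moved without the library labelled d3_WT_346 (3 higher), d3_WT_381 (4 higher, 2 lower), d7_WT_370 or d7_WT_419 (2 lower each), d3_WT_348, d3_WT_352, d3_WT_353, d3_WT_487 or d7_WT_356 (0 higher each), the library labelled d3_KO_345 (4 higher) or the library labelled d7_KO_420 (1 higher, 3 lower). The day 0 counts moved without d0_WT_31 (9 higher), d0_WT_43 or d0_WT_46 (3 higher each), d0_KO_32 (3 lower at each day), d0_KO_53 or d0_KO_54 (0 lower each) or the library labelled d3_KO_345 (2 lower). The Hk2 call at day 0 was lost in 6 of 9 such fits (adjusted p up to 0.176). The cause of these shifts was not tested. Of the other alternatives, 143 member counts and 77 medians kept their value within the limits used (1.5 times for counts, 0.16 for medians).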
